A study of Sus scrofa with 6 samples.

Results

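The prostaglandin synthesis enzymes were measured on Affymetrix arrays of the left ventricle (LV) free wall of piglets injected with doxorubicin (Dox), a chemotherapy agent of the anthracycline family with known cardiotoxicity, or with PBS. The rule named 10 enzymes, and 7 of them have a probe set under their own single symbol in the platform annotation, out of 6765 genes so named on the array. These were PTGS1, PTGS2, PTGDS, PTGES, PTGES3, TBXAS1 and PTGR1, with 9 probe sets between them, since PTGS1 and PTGES3 each have 2. PTGES2, PTGIS and HPGD had no probe set under those symbols and are not analysed here. The enzymes were chosen by their MAS5 signals on these same arrays, since PTGDS read lower and PTGS2 higher in Dox-injected piglets. The differences between the injection groups are therefore given for all of these enzymes as descriptions, with standard errors and without tests.

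The labels describe Large White piglets with tissue taken at 28 days of age. Dox-injected piglets (n = 3) had received 2.0 mg/kg intravenously in 1 dose when 8 days old, 3 weeks before, and PBS-injected piglets (n = 3) had received the vehicle alone. Each array holds the RNA of 1 animal. The published methods give a dose range and slightly different ages, and they report diastolic dysfunction of the heart in Dox-injected piglets. The samples are whole tissue, so that cardiac muscle, vessels, connective tissue and blood can all contribute RNA.

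Prostaglandins are made on demand from arachidonic acid, which phospholipases release from membranes. PTGS1 and PTGS2, the cyclooxygenases that aspirin and related drugs inhibit, convert arachidonic acid to an unstable common precursor. PTGS1 is made constitutively in many tissues, and PTGS2 is usually scarce until cytokines, growth factors or injury induce it. Separate terminal synthases then turn the precursor into prostaglandin D2 (PTGDS), prostaglandin E2 (PTGES, PTGES2, PTGES3), prostacyclin (PTGIS) or thromboxane (TBXAS1), while HPGD and PTGR1 inactivate the products. In the heart and its vessels prostacyclin relaxes smooth muscle and restrains platelets, and thromboxane acts the opposite way.

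The values are MAS5 signals on a linear scale, which the authors scaled so that each array has the same trimmed mean. Signals on different probe sets are not compared with each other. The highest signal among the 17 Tag probe sets, negative controls of artificial sequence, lay between 2.5 and 6.3. Signals that did not exceed this control maximum on the same array are called within the Tag range, and no fold is given for a probe set with 4 or more of its 6 signals there. Cardiac muscle markers were bright on all arrays, with 9 of 10 listed genes measured and none within the Tag range. The hybridization spike-in probe sets, whose transcripts are added in fixed amount to each sample, had geometric mean signals of 617 to 676 on the arrays of PBS-injected and 784 to 1100.4 on those of Dox-injected piglets. The 3′ to 5′ signal ratio of actin, a sign of RNA integrity, was 1.96 to 2.63 on the arrays of PBS-injected piglets. It was 6.04 for Dox replicate 1, 3.96 for Dox replicate 2 and 2.20 for Dox replicate 3. The same ratio of GAPDH was 1.18 to 1.68 on the arrays of PBS-injected piglets and 2.93, 1.33 and 1.24 for Dox replicates 1, 2 and 3, so that Dox replicate 1 was the highest array on both. Whether any difference below arises from these properties of the arrays was not tested. Over 23999 probe sets the smallest limma-adjusted p was 0.428. Therefore 0 probe sets (0% of those tested) passed the threshold, an adjusted p no higher than 0.05 and a fold no lower than 2. The methods' t-test also called 0, while 2290 had an unadjusted limma p no higher than 0.05.

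**Figure D1:**
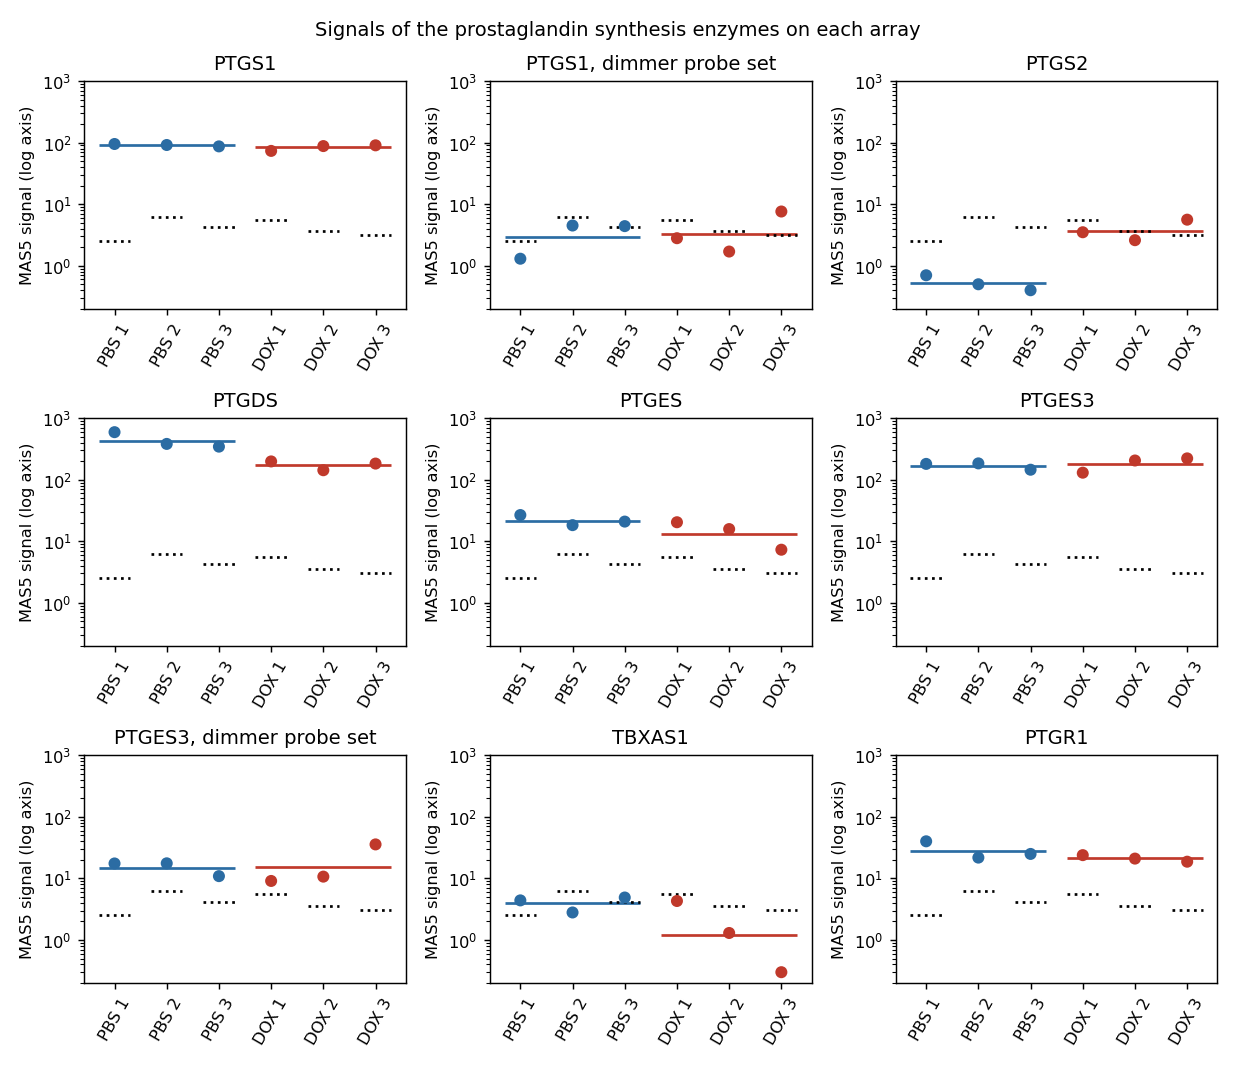
MAS5 signal (log axis) of the 9 probe sets of 7 prostaglandin synthesis enzymes by array (blue, PBS-injected; red, Dox-injected). Solid lines mark the geometric mean of a group's 3 arrays, and dotted lines the highest Tag signal on that array. PTGDS lies far above the dotted lines with the groups apart, whereas PTGS2 exceeds its dotted line on 1 array only.

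PTGDS, the lipocalin-type prostaglandin D synthase, is a secreted protein that also carries lipophilic molecules. Its probe set (Gene ID 397456) had signals of 592.5, 381.8 and 344.8 in PBS replicates 1, 2 and 3 and of 198.3, 142.7 and 183 in Dox replicates 1, 2 and 3. The highest signal of a Dox-injected piglet was thus well below the lowest of a PBS-injected piglet, and all 6 signals were far above the Tag range. The mean signal was 440 ± 134 after PBS and 175 ± 28.7 after Dox (SD, n = 3 each). The ratio of geometric means, PBS-injected over Dox-injected, was 2.47, a log2 difference of -1.30 ± 0.25 (standard error, SE). Here and below the SE is that of the limma fit, which draws each probe set's variance toward that of probe sets of similar signal. Such a separation was common on these arrays. Of all probe sets, 10.1% had every signal of the Dox-injected below every signal of the PBS-injected piglets, 10.3% had a geometric mean at least 2-fold lower and 7.78% one at least 2-fold higher. Among the 17069 probe sets that exceeded the Tag range on at least 3 arrays, 12.4% were fully below in this way and 7.36% were at least 2-fold lower. As PTGDS was chosen for this contrast, nothing is read from its place among them.

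With each array left out in turn, the log2 difference of PTGDS ranged from -1.46 without PBS replicate 3 to -1.07 without PBS replicate 1, the brightest array for this gene. The sign could not turn, since the groups did not overlap. Within the groups its log2 signals varied with an SD of 0.34. A smaller spread was found for 28.4% of all probe sets and 39.0% of those that exceeded the Tag range on at least 3 arrays. The spike-in probe sets were brighter on the arrays of Dox-injected piglets by 0.45 on the log2 scale. Centring each array on them lowers every difference by that amount, to -1.76 for PTGDS and from -0.10 to -0.55 for the median over all probe sets, and the share of probe sets below 0 went from 57.1% to 81.1%.

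The marker sums of fibroblasts and of endothelial cells were also lower on the arrays of Dox-injected piglets, without overlap. The summed signal of the fibroblast markers (5 of 7 measured) was between 2330.3 and 3186.7 after PBS and between 874 and 2148 after Dox, and all 5 had a lower geometric mean in Dox-injected piglets. Most of that sum came from DCN and LUM, and the groups overlapped for LUM and COL3A1. The summed signal of the endothelial markers (7 of 7 measured, 5 lower and 2 higher) was between 1340.0 and 2009 after PBS and between 1162 and 1286 after Dox. Taken singly, CDH5 alone of these 7 had groups that did not overlap. The summed cardiac muscle markers went the other way (9 of 10 measured, 1 lower and 8 higher). Their sums were between 42461 and 50910 after PBS and between 51102 and 66542 after Dox. This direction depends on the scaling of the arrays. The largest log2 difference among these 9 was 0.37, for MYH7, and centring on the spike-in probe sets lowers every difference by 0.45. The sums of smooth muscle and pericyte markers (5 of 6 measured, 2 lower and 3 higher) overlapped, at 2324 to 4050 against 2180 to 3410. No listed marker of these 4 cell types was within the Tag range on 4 or more arrays, and none passed over all probe sets. The part of cell composition in the PTGDS difference was not tested, and fewer cells of a type cannot be told apart from less RNA per cell in such bulk samples.

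**Figure D2:**
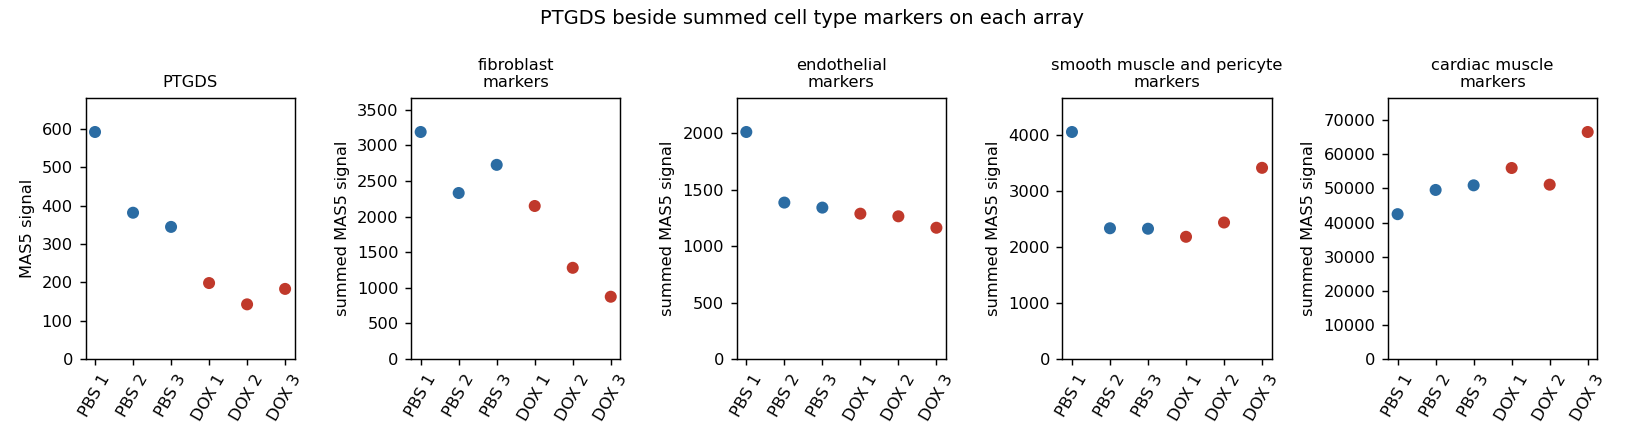
MAS5 signal of PTGDS and summed MAS5 signals of cell type markers by array on linear axes from 0 (blue, PBS-injected; red, Dox-injected). PTGDS and the sums of fibroblast and endothelial markers are lower on all 3 arrays of Dox-injected piglets than on any array of PBS-injected piglets, the smooth muscle sums overlap, and the cardiac muscle sums are higher.

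The 5 genes whose signals followed PTGDS most closely were RCN1, IGFBP6, TIE1, PCNA and C17H20orf27. They were the nearest of 6118 named probe sets brighter than the median, by the root mean square difference of log2 signals centred on each gene's mean over the 6 arrays. RCN1, which encodes a calcium-binding protein of the endoplasmic reticulum, was nearest at 0.14, with signals of 494.4, 284.3 and 225.9 after PBS and 156, 110.9 and 163.2 after Dox. IGFBP6, an insulin-like growth factor binding protein gene, followed at 0.18. TIE1, an endothelial receptor tyrosine kinase gene, also lay at 0.18, with signals of 91.4, 44.6 and 41.8 after PBS and 30.7, 18.2 and 20.9 after Dox. PCNA, the sliding clamp of DNA replication, and C17H20orf27 lay at 0.20. In each of the 5, PBS replicate 1 was the brightest array, as it was for PTGDS. This follows from choosing them by nearness to the PTGDS signals, so nothing is read from it. The likeness describes 6 arrays that share their group difference and their scaling.

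**Figure D3:**
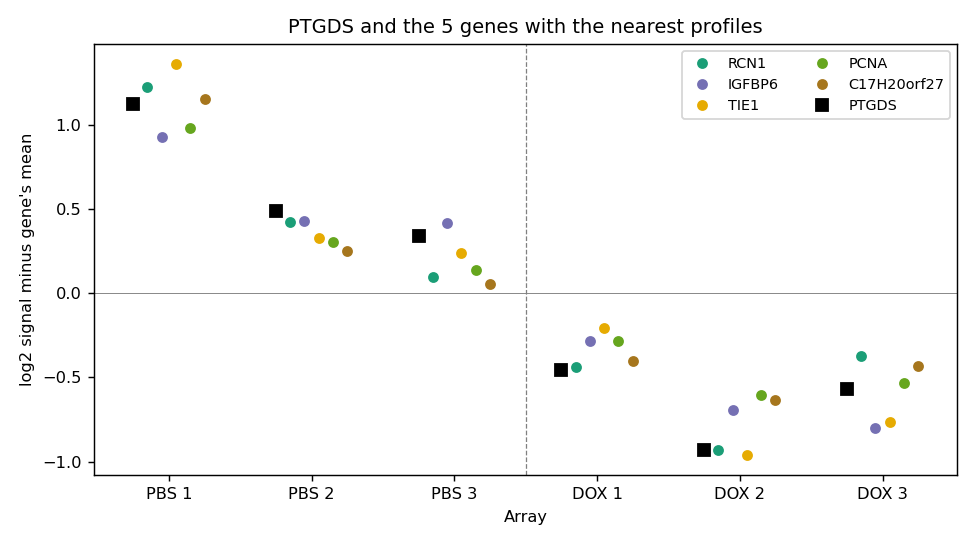
Log2 MAS5 signal minus the gene's own mean for PTGDS (black squares) and its 5 nearest genes (coloured circles) on each of the 6 arrays. For all 6 genes PBS replicate 1 is highest and the 3 arrays of Dox-injected piglets lie below 0, a likeness for which the 5 were chosen.

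PTGS2, the inducible cyclooxygenase, was near the limit of what these arrays measure. Its probe set (Gene ID 397590) had signals of 0.7, 0.5 and 0.4 in PBS replicates 1, 2 and 3 and of 3.5, 2.6 and 5.6 in Dox replicates 1, 2 and 3. Each signal of a Dox-injected piglet was higher than each signal of a PBS-injected piglet. All 3 signals of PBS-injected piglets and those of Dox replicates 1 and 2 were nevertheless within the Tag range, where the limits were 5.5 and 3.6 for these last arrays, and Dox replicate 3 alone exceeded its limit of 3.1. No fold is therefore given. Over all probe sets, 6.19% had every signal of the Dox-injected above every signal of the PBS-injected piglets. Because PTGS2 was chosen for its direction and 5 of 6 signals were within the Tag range, a higher PTGS2 transcript level is not established by these values, and neither do signals this dim show that the transcript is absent.

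Of the neutrophil markers, 4 of 6 were measured, 3 with a higher and 1, ELANE, with a lower geometric mean in Dox-injected piglets, and none passed over all probe sets. Their summed signal was between 13.4 and 33.7 after PBS and between 70.2 and 803 after Dox, with S100A12 within the Tag range on 4 arrays and ELANE on 6. Most of that sum came from S100A9, with signals of 9.2, 7.8 and 27.5 after PBS and 56.9, 681.5 and 185.9 after Dox. The summed signals of macrophage and pan-leukocyte markers (5 of 7 measured) overlapped at 340 to 460.3 after PBS and 402 to 580.4 after Dox, with PTPRC within the Tag range on 5 arrays. Their part in the PTGS2 signals was not tested. No genes are named for a likeness to PTGS2 across the arrays, since most of its signals were within the Tag range.

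PTGS1, the constitutive cyclooxygenase, was among the steadiest signals on the array. At the brighter probe set (Gene ID 397541) it had signals of 94.9, 91.4 and 86.8 after PBS and 73.3, 87.8 and 90.3 after Dox, and the groups overlapped. The mean was 91 ± 4.06 after PBS and 83.8 ± 9.18 after Dox (SD, n = 3 each), a log2 difference of -0.12 ± 0.22 (SE). The SD of log2 signals within groups was 0.12. A smaller SD was found for 2.93% of all probe sets and 4.08% of those that exceeded the Tag range on at least 3 arrays. The SE is larger than this SD alone would give, because limma draws it toward the spread of other probe sets. The difference turned to 0.04 with cyclic loess and 0.02 with quantile normalization, and it was -0.58 when arrays were centred on the spike-in probe sets. The dimmer PTGS1 probe set had signals of 1.3 to 4.5 after PBS and 1.7 to 7.6 after Dox, 4 of 6 within the Tag range.

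PTGES and PTGES3 encode synthases of prostaglandin E2. PTGES, the inducible microsomal enzyme that often acts downstream of PTGS2, had signals of 26.7, 18.3 and 20.9 after PBS and 20.4, 15.8 and 7.3 after Dox (Gene ID 654407). The groups overlapped, and the lowest signal was that of Dox replicate 3. The log2 difference was -0.71 ± 0.45 (SE), and leaving out Dox replicate 3 gave -0.27, leaving out Dox replicate 1 gave -1.01. The PTGES mean was 22 ± 4.3 after PBS and 14.5 ± 6.65 after Dox (SD, n = 3 each).

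PTGES3, also known as the HSP90 co-chaperone p23, had signals of 180.8, 184.3 and 145.4 after PBS and 130.2, 205.3 and 222.2 after Dox at its brighter probe set (Gene ID 100155956). Dox-injected piglets held both the lowest and the highest signal, with means of 170 ± 21.5 after PBS and 186 ± 49 after Dox (SD, n = 3 each). The log2 difference was 0.10 ± 0.26 (SE), with values from -0.05 without Dox replicate 3 to 0.34 without Dox replicate 1, and -0.36 when arrays were centred on the spike-in probe sets. The dimmer probe set had signals of 10.9 to 17.6 after PBS and of 9.1, 10.7 and 35.7 after Dox, a log2 difference of 0.02 ± 0.55 (SE). At both PTGES3 probe sets Dox replicate 1 was the lowest and Dox replicate 3 the highest array.

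TBXAS1, the thromboxane synthase of platelets and macrophages, had signals of 4.4, 2.8 and 4.9 after PBS and 4.3, 1.3 and 0.3 after Dox (Gene ID 397112). The groups overlapped, 4 of 6 signals were within the Tag range, and no fold is given. The summed signals of the platelet markers (4 of 6 measured, PPBP within the Tag range on 5 arrays) overlapped as well, at 47 to 80.5 after PBS and 53.6 to 76.6 after Dox.

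PTGR1, which reduces oxidized prostaglandins and also inactivates leukotriene B4, had signals of 40.1, 21.8 and 25 after PBS and 23.9, 21 and 18.7 after Dox (Gene ID 397678). The groups overlapped, with means of 29 ± 9.77 after PBS and 21.2 ± 2.61 after Dox (SD, n = 3 each). The log2 difference was -0.41 ± 0.34 (SE), and it was -0.15 without PBS replicate 1, which held the highest signal.

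Across the 7 enzymes, read at the brighter probe set where there are 2, the log2 difference was below 0 for 5 and above 0 for 2, with a median of -0.41. Among these, the directions of PTGDS and PTGS2 were set by the choice. PTGS2 and TBXAS1 also count here by sign, though no fold is given for them. The median over all probe sets tested was -0.10, and 57.1% of them were below 0. The groups did not overlap for 2 of the 7, PTGDS and PTGS2, which are the genes that the choice was based on, against 16.3% of all probe sets and 19.2% of those that exceeded the Tag range on at least 3 arrays. Of the 5 enzymes above the Tag range, 4 were lower and 1 was higher in Dox-injected piglets, but PTGS1 turned to above 0 with quantile and cyclic loess normalization and PTGES3 to below 0 with centring on the spike-in probe sets, which lowers all differences by 0.45. The array of Dox replicate 3 gave the highest signal for 4 and the lowest for 3 of the 9 probe sets.

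**Figure D4:**
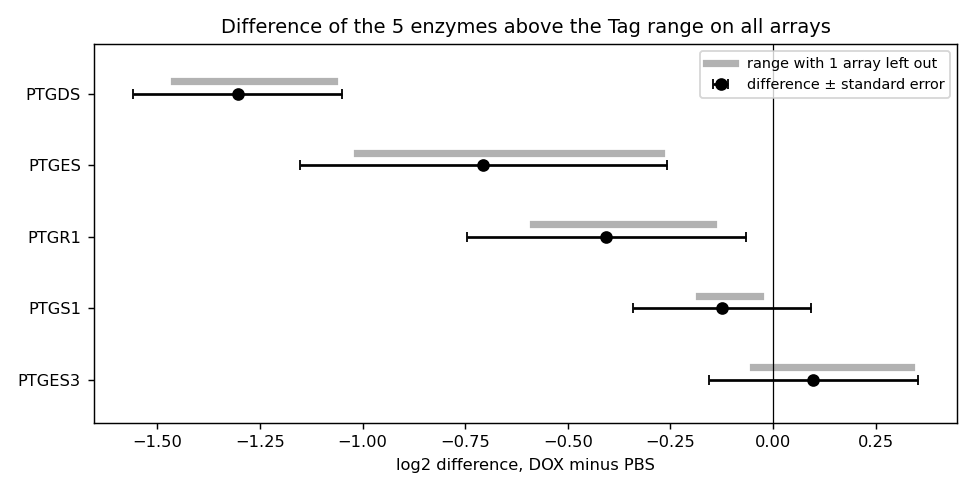
Log2 difference, Dox-injected minus PBS-injected (points, with standard errors of the limma fit as bars), for the 5 enzymes above the Tag range on all arrays, and the range of the difference with 1 array left out (grey bars). PTGDS lies at -1.30 with a grey bar from -1.46 to -1.07, and the grey bar of PTGES3 alone spans 0.

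The genes that supply, sense, transport or regulate the products of these enzymes were tested in the fit over all probe sets. Of 94 genes in 5 lists, 52 were measured and 0 passed. An unadjusted limma p no higher than 0.05 was found for 12, 6 lower and 6 higher in Dox-injected piglets. Among all probe sets 9.54% had such a p, and 10.9% of those that exceeded the Tag range on at least 3 arrays. As the lists were chosen with earlier results of these data known, nothing is read from these shares. The median log2 difference of the 52 genes was 0.05, against -0.10 for all probe sets.

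**Figure D5:**
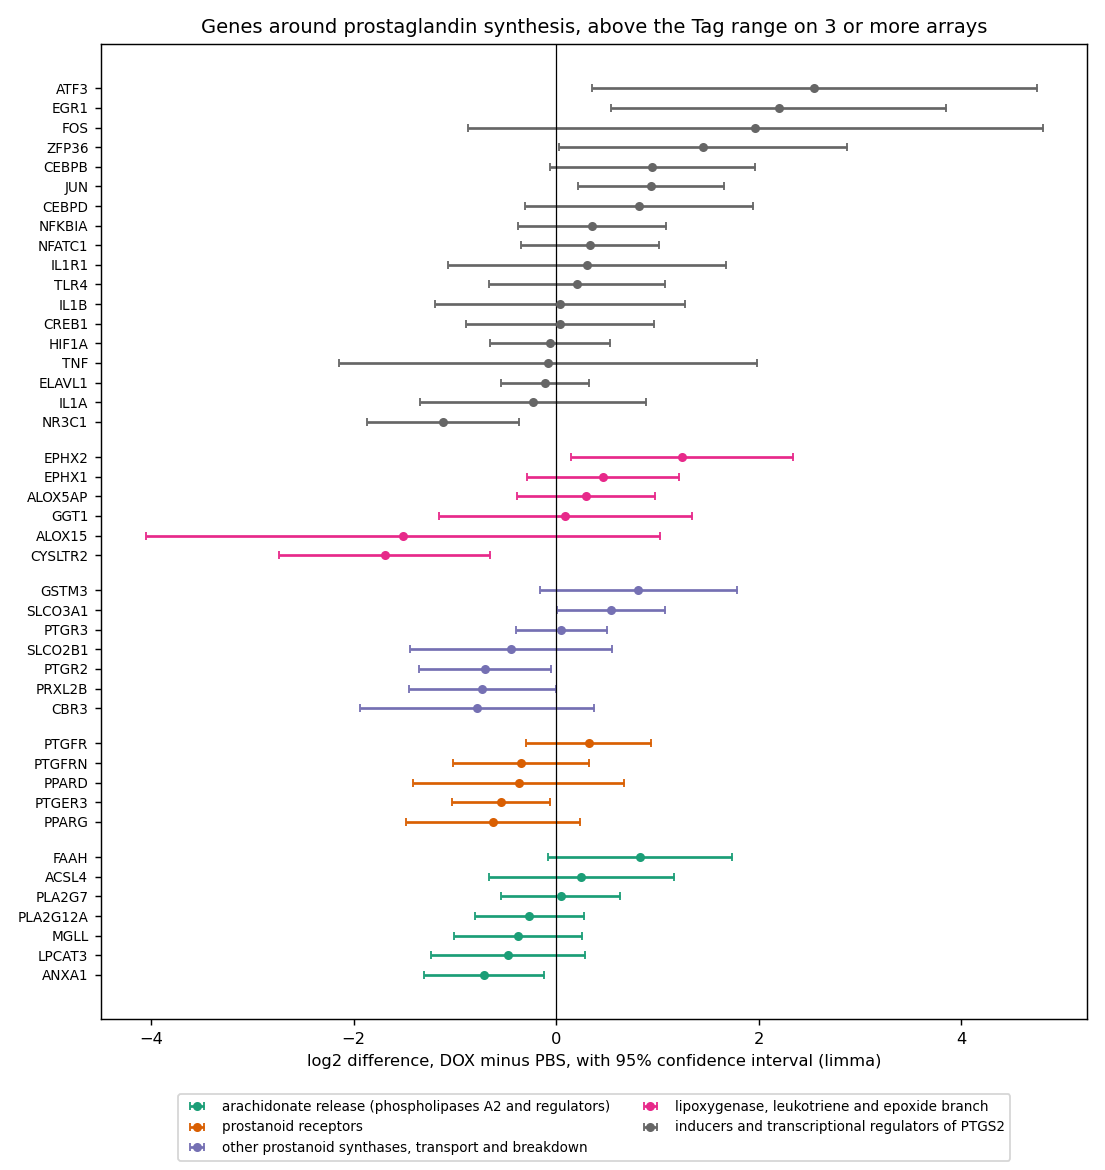
Log2 difference, Dox-injected minus PBS-injected, with unadjusted 95% confidence intervals from limma for the listed genes around prostaglandin synthesis that exceeded the Tag range on at least 3 arrays, coloured by list. Among the genes whose interval excludes 0, CYSLTR2 at -1.70 is the lowest and ATF3 at 2.55 the highest.

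Upstream of the cyclooxygenases, 9 of 23 genes of arachidonic acid release were measured, 5 with a log2 difference below 0 and 4 above, and 1 was among the 12. This was ANXA1, which encodes annexin A1, a glucocorticoid-induced protein that restrains phospholipase activity. Its signals were 432.9, 305.9 and 326.5 after PBS and 271.8, 235.2 and 153.3 after Dox, without overlap, a log2 difference of -0.71 ± 0.26 (SE, limma-adjusted p = 0.521) that was -0.47 without Dox replicate 3. The remaining genes named by rule were FAAH at 0.83, which was 0.39 without Dox replicate 2, LPCAT3 at -0.48, PLA2G7 at 0.05, and PLA2G1B, within the Tag range on 5 arrays. Among them LPCAT3, which returns arachidonic acid to phospholipids, ranged from -0.81 without Dox replicate 3 to -0.27 without PBS replicate 1. The dimmer LPCAT3 probe set, above the Tag range on all arrays, had the opposite sign at 0.19.

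Downstream, 5 of 12 receptor and receptor-related genes were measured, 4 below 0 and 1 above. PTGER3, a prostaglandin E2 receptor gene and the 1 of this list among the 12, had signals of 155, 135.3 and 161.3 after PBS and 110.2, 111.2 and 89.1 after Dox. The groups did not overlap, and the log2 difference was -0.54 ± 0.21 (SE, limma-adjusted p = 0.521). PPARG, which prostaglandin D2 metabolites can activate, had a log2 difference of -0.62 ± 0.38 (SE, limma-adjusted p = 0.598), which was -0.36 without Dox replicate 2. PTGFR was at 0.32, from 0.15 without PBS replicate 2 to 0.53 without Dox replicate 2, and at 0.21 and 0.22 without Dox replicates 1 and 3. PTGFRN was at -0.35, from -0.52 without PBS replicate 2 or Dox replicate 1 to -0.13 without PBS replicate 1 and -0.14 without Dox replicate 3. Another PTGFRN probe set, above the Tag range on all arrays, was at -0.0006, and the remaining one was within the Tag range on 4 arrays. The receptors of prostaglandin D2, prostacyclin and thromboxane are not analysed here. Of 18 genes of other synthases, transport and breakdown, 9 were measured, 4 below 0 and 5 above, and the groups overlapped for all 9. The reductase gene PTGR2, which acts on the same oxidized prostaglandins as PTGR1, had signals of 677.9, 541.7 and 504.1 after PBS and 504.9, 365.1 and 233.2 after Dox, a log2 difference of -0.70 ± 0.29 (SE, limma-adjusted p = 0.521) that was -0.41 without Dox replicate 3. PRXL2B at -0.73 and SLCO3A1 at 0.54, which was 0.34 without Dox replicate 3, were also among the 12. GSTM3 was at 0.81, with 0.46 when Dox replicate 3 was left out and 1.28 when Dox replicate 1 was, and PTGR3 at 0.05.

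The lipoxygenase, leukotriene and epoxide branch draws on the same arachidonic acid, and 8 of its 18 genes were measured, 4 below 0 and 4 above. CYSLTR2, a receptor gene for cysteinyl leukotrienes, had the smallest unadjusted p of the 52, with signals of 27.3, 23.5 and 30.6 after PBS and 15.8, 5.9 and 6.2 after Dox. The groups did not overlap, and the log2 difference was -1.70 ± 0.45 (SE, limma-adjusted p = 0.521). This difference ranged from -2.16 without Dox replicate 1 to -1.45 without Dox replicate 2, and it was -0.79 with an offset of 16 before log2. EPHX2, the soluble epoxide hydrolase gene, was at 1.25 (limma-adjusted p = 0.521), and its signals overlapped between the groups. Its difference ranged from 0.86 without Dox replicate 3 to 1.88 without Dox replicate 1. EPHX1 was at 0.47, with 0.16 when PBS replicate 1 was left out and 0.75 when PBS replicate 2 was. CYSLTR1 was within the Tag range on 4 arrays.

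Of 23 inducers and regulators of PTGS2, 21 were measured, 15 with a log2 difference above 0 and 6 below, and 5 were among the 12. The median was 0.31, which was -0.02 without Dox replicate 3. EGR1, an immediate early gene, had signals of 36.1, 59.7 and 32.8 after PBS and 53.3, 237.1 and 540.1 after Dox, a log2 difference of 2.20 ± 0.72 (SE, limma-adjusted p = 0.521) that ranged from 1.44 without Dox replicate 3 to 3.11 without Dox replicate 1. ATF3, a stress-responsive transcription factor gene, had signals of 32.6, 167.9 and 38.1 after PBS and 75.4, 1115.5 and 498.3 after Dox, which overlapped. Its log2 difference was 2.55 ± 0.96 (SE, limma-adjusted p = 0.521), with a range of 1.71 without Dox replicate 2 to 3.65 without Dox replicate 1. JUN, a subunit gene of AP-1, was at 0.93 without overlap of the groups, and ZFP36, whose product destabilizes PTGS2 transcripts, had signals of 164, 385.3 and 322.4 after PBS and 249, 1219.3 and 1373.4 after Dox, which overlapped. NR3C1, the glucocorticoid receptor gene whose product represses PTGS2 and induces ANXA1, was at -1.12 without overlap, and 2 of its other probe sets were at -0.56 and -0.18. The remaining one was within the Tag range on 4 arrays. ELAVL1, whose product stabilizes transcripts, was at -0.11. Among the cytokine genes, IL1B had overlapping signals of 7.1, 13.4 and 5.5 after PBS and 6.7, 5.8 and 14.6 after Dox, TNF of 5.3, 1.1 and 7.2 after PBS and 6, 1.2 and 4.9 after Dox with 2 within the Tag range, and IL6 was within the Tag range on 5 arrays.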

How the data were processed

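Affymetrix Porcine Genome Arrays were run by the authors on LV free wall RNA of 3 PBS-injected and 3 Dox-injected piglets, and groups were taken from the sample titles. The deposited values are linear MAS5 intensities that the authors obtained from GCOS 1.4 (version from the submitters' processing notes). No normalization was added. Before log2 was taken, a floor of 0.1 replaced signals of 0. In R 4.3.3, limma 3.58.1 was used (lmFit, and eBayes with a trend) with Benjamini-Hochberg adjustment over 23999 probe sets, 124 array controls being left out. Calls needed an adjusted p of at most 0.05 and a fold of at least 2, the study's threshold. The members, gene lists and tests were chosen with earlier results of these data known. Where a gene had several probe sets, the brightest by geometric mean was read. In each list the genes with the 4 smallest unadjusted p and the brightest gene are named, besides a few named for their signals. ZADH2, FAM213B and TTP were read as PTGR3, PRXL2B and ZFP36. The fit was tested on simulated data. Replicates are separate animals. The number of arrays limits the precision. Alternatives were other normalizations, an offset, a filter on dim probe sets, other variance settings, a block on replicate number, the methods' t-test and leaving out each array. Probe sequences and protein sequences were not used here. Plotting used matplotlib 3.10.9 (Python 3.11.15).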

Additional observations from a re-analysis of the deposited data

How the results depend on the processing

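The count of probe sets called was 0 under each alternative, apart from 14 without Dox replicate 1, so that it ranged from 0 to 14 with 1 array left out. In each of the 5 lists it was 0 in all of them. The PTGDS difference ranged from -1.46 to -1.07 with 1 array left out and from -1.34 to -1.23 otherwise, apart from -1.76 when arrays were centred on the spike-in probe sets, a setting chosen after seeing the data. The median over the 7 enzymes was then -0.86, and it ranged from -0.59 to -0.15 with 1 array left out. No size is given for PTGS2, since it depends on how signals this dim are treated, and its log2 difference was 0.26 with an offset of 16. Without dim probe sets PTGS2 and TBXAS1 gave no value, and the medians of the other synthases and of the lipoxygenase branch were -0.45 and 0.19. Both medians turned sign with single arrays left out (from -0.39 to 0.19 and from -0.36 to 0.26). The small differences of PLA2G7 (-0.047 and -0.047) and PTGR3 (-0.055 and -0.039) were below 0 with quantile and cyclic loess normalization. With 1 array left out they ranged from -0.12 to 0.33 and from -0.11 to 0.19, and that of ELAVL1 from -0.22 to 0.023. The cause of these shifts was not tested. The labels number the replicates without naming pairs, whereas the paper refers to pairs of samples on the arrays without saying how they were paired. Deviations of same-numbered arrays from their group means correlated at -0.05, 0.06 and -0.11 across probe sets. For PBS and Dox arrays of different numbers the correlations ran from -0.095 to 0.109. Such correlations cannot exclude a pairing that affects only some genes. With the replicate number as a block the count of calls was 0 and the PTGDS difference -1.30.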
